A study of Bos taurus with 16 samples.

Results

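The genes described here are those of the antibody-secreting plasma cell and of the transport of antibody across a mucosa: JCHAIN (named IGJ on the array), MZB1, TNFRSF17, XBP1, PRDM1, IRF4, POU2AF1, DERL3 and PIGR. They were measured in circulating white blood cells (WBC) and endometrial biopsies of Holstein cows by one-colour microarray, in which a single labelled sample is hybridised to an array and a probe is read from how bright its spot is. The members were taken as every non-control probe whose gene name on the array equals one of these symbols, which gave 17 of 46615 probes and 8 of the 9 genes. No probe carries the name TNFRSF17. The gene list was proposed with earlier results of these arrays known, and PIGR in particular had been selected on its SCE minus healthy difference in WBC. That difference is therefore given as a description. The samples came from 4 multiparous cows with subclinical endometritis (SCE), numbered 718, 833, 836 and 846, and from 4 healthy ones, numbered 841, 850, 877 and 883, all between 45 and 55 days post-partum. Each cow gave 1 WBC array, from blood drawn into PAXgene tubes, and 1 endometrium array, from a biopsy taken through the cervix. No agent was given to separate the groups: SCE here is the state found by examination of the endometrium, without outward signs of disease. The labels do not tie a stage of the estrous cycle to single cows. By group, the paper reports that most of these SCE cows were in the luteal phase. The healthy cows were evenly split between luteal and follicular phase. The paper also reports that the stage affected several endometrial genes of healthy cows by RT-qPCR. Status and stage are thus not balanced, and the part of the stage in the differences was not tested.

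Plasma cells are the end stage of the B lymphocyte. On the way there IRF4 and PRDM1, a pair of transcription factors, shut down the B cell programme, and XBP1, a transcription factor of the unfolded protein response, enlarges the secretory apparatus. In mucosal tissue such as the uterus, plasma cells below the epithelium secrete polymeric antibody joined by the J chain, and epithelial cells take it up with the polymeric immunoglobulin receptor, PIGR, and release it into the lumen.

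Each probe is an oligonucleotide of 60 bases, and each of the 17 lies on 1 spot per array. For JCHAIN and PIGR, whose representative (brightest) probes spread most among SCE cows in the endometrium, the first 30 bases of probes 1 and 2 are shown, because the agreement between probes of 1 gene depends on how much sequence they share. The capitals mark bases common to the PIGR probes, which overlap by 47 bases in all and so are not independent readings. The JCHAIN probes share no such stretch. The start of each probe in the transcript is base 1114 for JCHAIN probe 1, base 795 for JCHAIN probe 2, base 3522 for PIGR probe 1 and base 3510 for PIGR probe 2.

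JCHAIN probe 1, bases 1 to 30: atcacctctgttgtaactaaatctaacaaa
JCHAIN probe 2, bases 1 to 30: tttggctttgccctagagagcctgagcttt
PIGR probe 1, bases 1 to 30: GCACTTCAACTAGCATCTATGAGCTGGCAC
PIGR probe 2, bases 1 to 30: ccttctaagctctGCACTTCAACTAGCATC

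On the genome build named by the array (HGSC Btau_3.1), the JCHAIN probes lie at chr6:88905085-88905144 and chr6:88905404-88905463 and the overlapping PIGR probes at chr16:3730274-3730333 and chr16:3730287-3730345, all on the minus strand. PIGR probe 3 starts at base 588 of the same transcript, and only 9 of its 60 bases were placed on this build. It is shown with the IRF4 pair, because in each of these genes 1 probe was at background where another was not, and with DERL3, which rests on a single probe. IRF4 probe 1 spans chr23:53259324-53261342, 2019 bases for 60 bases of probe, and the DERL3 probe spans chr17:74545852-74546315, 464 bases, so that both cross an intron. IRF4 probe 2 lies in 1 stretch at chr23:53251713-53251772.

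PIGR probe 3: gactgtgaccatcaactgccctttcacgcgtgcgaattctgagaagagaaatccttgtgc
IRF4 probe 1: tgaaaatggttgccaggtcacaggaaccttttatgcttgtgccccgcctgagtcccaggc
IRF4 probe 2: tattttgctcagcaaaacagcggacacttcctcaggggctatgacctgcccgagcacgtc
DERL3: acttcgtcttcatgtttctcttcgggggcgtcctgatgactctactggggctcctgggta

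PRDM1 was read by 4 probes and XBP1 by 3, of which XBP1 probes 1 and 2 share 32 bases, in capitals here. PRDM1 probe 2 shares a stretch of at least 30 bases with 1 probe outside the set. MZB1 and POU2AF1 had 1 probe each.

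XBP1 probe 1, bases 15 to 44: agtgtaacttttggACGGTGCTTTCTCCAT
XBP1 probe 2, bases 1 to 30: ACGGTGCTTTCTCCATTTATTTAAAACTAC

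All values below are log2 quantile-normalized median spot intensities. Levels of different probes are not set against each other, and the number of arrays limits the precision. The WBC arrays shared slide 1 and the endometrium arrays slide 2, which means that a slide effect and a tissue effect cannot be told apart. Each row of 4 arrays on a slide held 2 SCE and 2 healthy cows. Between 64.7% and 79.8% of the spots of an array were well above background. The endometrium array of SCE cow 833 stood apart, with the lowest share of such spots (64.7%) and a median signal over background of 79, against 248 to 300.0 in the healthy endometrium. Its list means also lay outside those of the other endometrium arrays for endothelial genes (13.63 against 11.12 to 12.05) and for stromal genes (11.40 against 11.73 to 12.74). The WBC array of the same cow had the highest median signal over background in WBC, 202.5, against 83 to 132 in healthy WBC. Its share of spots well above background, 75.8%, was also the highest in WBC. Many of the differences that rest on the endometrium array of cow 833 are given with and without this cow. Tissue differences by status are given only with it. In bulk RNA, fewer cells of a type and less RNA per cell cannot be told apart.

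POU2AF1, DERL3, MZB1 and IRF4 were lower in the endometrium than in WBC, PRDM1, XBP1 and PIGR were higher, and JCHAIN did not pass the test in either direction over all cows. In limma's TREAT test against 1.2-fold over all 16 arrays, with Benjamini-Hochberg adjustment over all probes, 9 of the 17 probes were called higher in the endometrium (22.7% of all probes tested) and 5 lower (31.2% of all probes tested). The median difference of the 17 probes was 0.91, beside -0.16 over all probes. PRDM1, XBP1 and PIGR, the genes higher in the endometrium, had more probes than any other member. The median and the counts of probes therefore lean toward these genes and do not show a shift of the whole set. For 6 of the 17 probes no endometrium array overlapped any WBC array, as for 37% of all probes. Among healthy cows alone, 7 probes were called higher, where 19.7% of all probes were, and 5 lower, where 26.8% were. Among SCE cows alone, 7 were again called higher, where 19.3% of all probes were, and 5 lower, where 26% were.

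**Figure D1:**
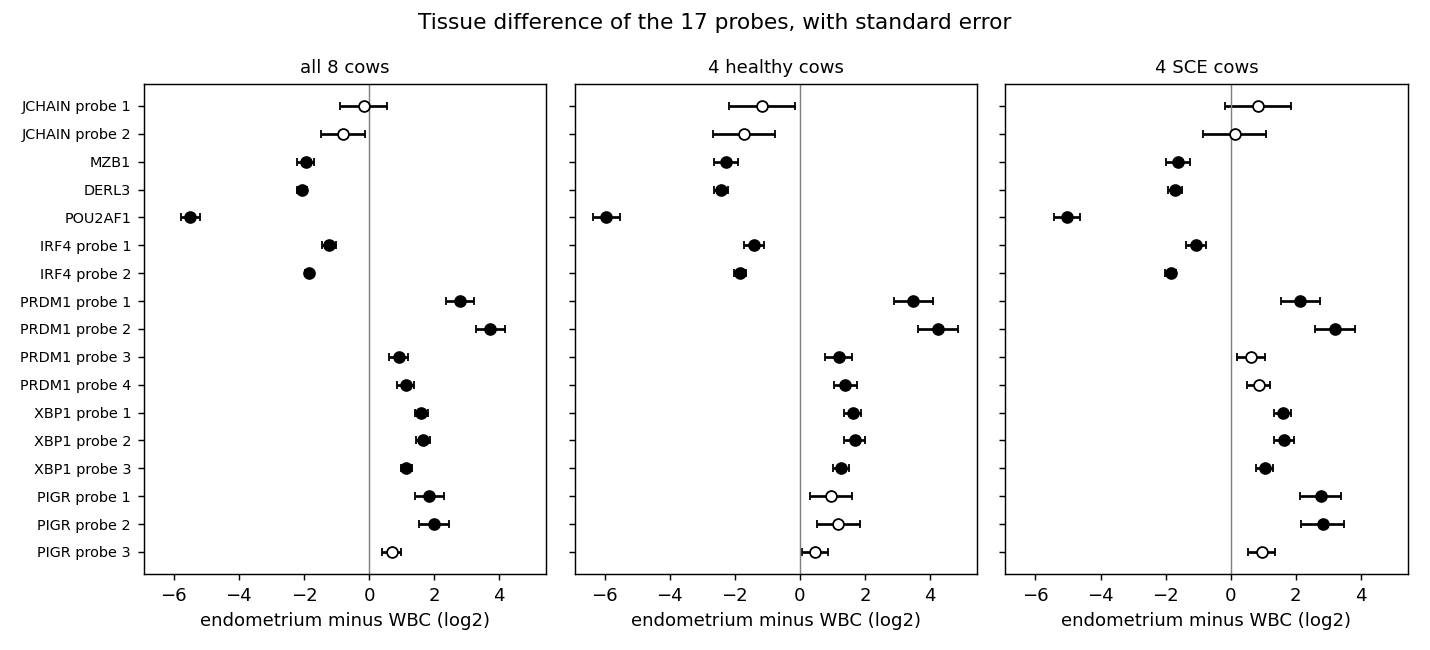
Endometrium minus WBC difference (log2, x axis) of each of the 17 probes (y axis) over all 8 cows, the 4 healthy cows and the 4 SCE cows, with standard errors as bars; filled points passed TREAT after adjustment. POU2AF1 lies farthest to the left in every panel (-5.49, -5.95 and -5.03), and PIGR probes 1 and 2 are filled over all cows and in SCE cows only.

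POU2AF1 is the coactivator through which octamer factors drive immunoglobulin genes in B cells. In WBC it read 11.61, 12.38, 11.98 and 12.50 for the healthy cows (841, 850, 877 and 883) and 11.31, 11.89, 11.99 and 12.44 for the SCE cows (718, 833, 836 and 846). In the endometrium it read 6.44, 5.63, 6.53 and 6.08 in the healthy and 8.40, 6.11, 6.44 and 6.56 in the SCE cows, in the same order of cows. The tissues were far apart in every cow, and the level of SCE cow 718 was above those of the other 7 endometrium arrays. The probe was well above background on 2 healthy and 3 SCE endometrium arrays. The tissue difference was -5.49 ± 0.29 (SE), or 44.9-fold lower in the endometrium (limma TREAT, adjusted p = 2e-10). The size of this fold depends on the scaling of dim spots, since the difference was -7.04 (132-fold) with the processed signal and -4.83 (28.4-fold) with each tissue normalized on its own.

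DERL3 takes part in drawing misfolded proteins out of the endoplasmic reticulum. Its level in the endometrium was 7.57 ± 0.20 in healthy and 8.00 ± 0.29 in SCE cows (SD, n = 4 each), and in WBC 10.01 ± 0.22 and 9.71 ± 0.41. No endometrium array reached the lowest WBC array, of 9.25. The tissue difference was -2.07 ± 0.15 (SE; adjusted p = 1.51e-08), and -1.15 with each tissue normalized on its own, which was still called.

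MZB1 is a chaperone of the endoplasmic reticulum that helps to assemble and secrete antibody. Its WBC levels ran from 10.68 to 11.30 in healthy and from 10.54 to 11.45 in SCE cows. In the endometrium the healthy cows read 8.59, 8.64, 8.99 and 8.75, while the SCE cows 718, 833, 836 and 846 read 9.43, 10.92, 8.70 and 8.66. Cow 833 alone came up to the range of WBC, and 718 was the next highest, with the other SCE cows inside the healthy range. The tissue difference was -1.95 ± 0.27 (SE; adjusted p = 2.78e-05), -2.28 without cow 833 and -1.0 with each tissue normalized on its own (adjusted p = 0.0158).

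IRF4 was lower in the endometrium by both probes. Probe 1 read 9.52 ± 0.30 in WBC of healthy cows and 8.11 ± 0.15 in their endometrium, with 9.50 ± 0.56 and 8.44 ± 0.71 in SCE cows (SD, n = 4 each). Among endometrium arrays SCE cow 833 was again the highest, at 9.39, where the other 7 lay between 7.88 and 8.55. The difference was -1.24 ± 0.22 (SE; adjusted p = 0.00074). Probe 2 was not well above background on any healthy endometrium array, so that WBC of healthy cows was at least 3.54-fold higher there under the main scaling. The fold of probe 2 depends on the scaling. Over all cows it was 3.58, but 2.55 with normexp background correction and 2.3 with each tissue normalized on its own. With the processed signal it was 9.78. With each tissue normalized on its own, probe 1 was no longer called (-0.29, adjusted p = 0.663).

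PRDM1, the repressor known as Blimp-1, and XBP1 ran the other way. Both genes are also expressed outside plasma cells, in epithelium among other tissues. PRDM1 probe 1 read 10.32 ± 0.13 in WBC of healthy cows and 13.80 ± 0.57 in their endometrium (SD, n = 4 each). In SCE cows 718, 833, 836 and 846 it read 10.61, 11.48, 10.70 and 10.27 in WBC and 14.37, 10.77, 12.16 and 14.26 in the endometrium. Cow 833 was lower in the endometrium than in WBC, unlike the other 7 cows. Both arrays of this cow stood apart in signal, and the part of array quality in this order was not tested. Over all cows the difference was 2.80 ± 0.43 (SE; adjusted p = 5.34e-05), and 3.27 without cow 833. The other PRDM1 probes gave 3.73, 0.91 and 1.13, all called after adjustment. Of these, probe 3 was not called with the cow as a block (adjusted p = 0.0542, against 0.0438 without it), nor when any 1 of the cows 718, 841, 846, 850, 877 and 883 was left out (adjusted p between 0.0503 and 0.114).

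XBP1 probe 1 read between 13.30 and 14.28 in WBC and between 14.57 and 15.78 in the endometrium, with no overlap between tissues for any of its 3 probes. The differences were 1.61 ± 0.19, 1.66 ± 0.22 and 1.15 ± 0.18 (SE), with adjusted p of 6.8e-06, 2.24e-05 and 0.000213. With the processed signal probe 1 gave 0.95 and was still called. SCE and healthy cows differed in probe 1 by 0.02 in the endometrium and 0.04 in WBC, less than the SD among cows of either group.

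**Figure D2:**
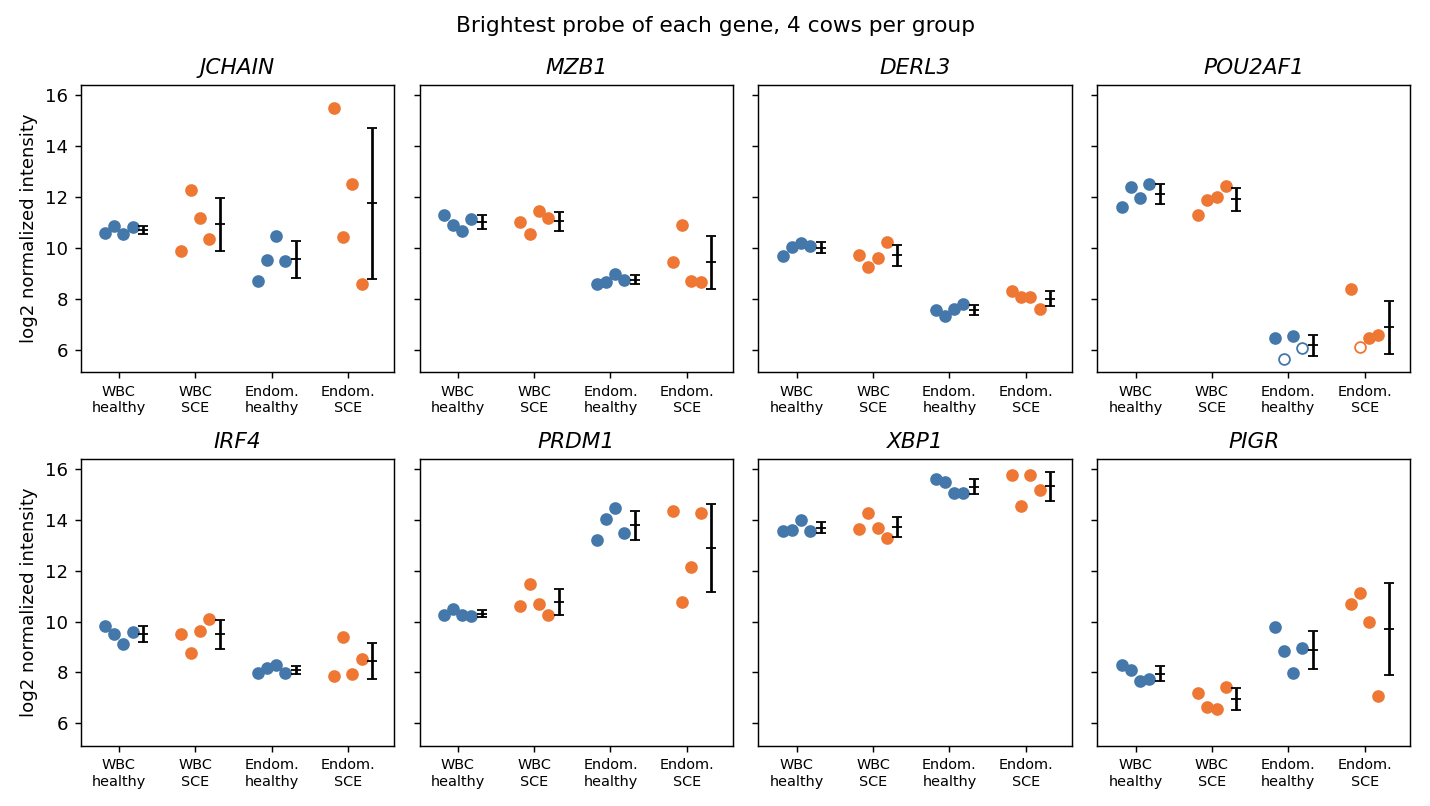
Log2 normalized intensity (y axis) of the brightest probe of each of the 8 genes on every array, by tissue and status (x axis; blue healthy, orange SCE); open points were not well above background, and bars beside the points are mean and SD of 4 cows. The spread among SCE cows in the endometrium is widest for JCHAIN, from 8.58 to 15.51; heights of different genes are readings of different probes and are not comparable.

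JCHAIN codes for the J chain, which joins antibody molecules into polymers and lets PIGR bind them. In the endometrium of healthy cows 841, 850, 877 and 883 probe 1 read 8.68, 9.54, 10.48 and 9.50. In SCE cows 718, 833, 836 and 846 it read 15.51, 10.43, 12.50 and 8.58. Cows 718 and 836 were above every healthy cow, 833 was just below the highest of them, and 846 was below them all. In WBC the healthy cows lay close together, between 10.54 and 10.86, and SCE cows 718, 833, 836 and 846 read 9.88, 12.28, 11.18 and 10.35. The order of the SCE cows in blood was thus not that in the endometrium, and 718, highest of all in the endometrium, was the lowest in WBC. The highest reading in blood, of cow 833, came from the WBC array with the highest median signal.

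The mean JCHAIN level in the endometrium was 9.55 ± 0.74 in healthy and 11.76 ± 2.97 in SCE cows (SD, n = 4 each), a difference of 2.20 ± 1.30 (SE). Without cow 718 it was 0.95, and without cow 846 it was 3.26. The second probe, which shares no stretch with the first, gave 2.21 ± 1.24. Between tissues the difference of probe 1 was -0.16 ± 0.72 (SE; adjusted p = 0.971). It was -1.16 in healthy cows and 0.84 in SCE cows, and it turned positive with each tissue normalized on its own (0.74) and without cow 833 (0.29) or 846 (0.27). Probe 2 gave -0.80 ± 0.68 (SE; adjusted p = 0.423), but without cow 718 it was called lower in the endometrium (-1.50, adjusted p = 0.0248), where probe 1 gave -0.96 (adjusted p = 0.186).

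Antibody chain probes outside the set were read beside JCHAIN, and these probes were chosen after their values were seen. LOC524810, described on the array as an IgM gene, read 10.08, 10.68, 12.54 and 11.54 in the endometrium of healthy cows 841, 850, 877 and 883, and 18.13, 13.33, 15.67 and 8.18 for the SCE cows (718, 833, 836 and 846). Its order among the SCE cows was that of JCHAIN. The brightest probe named IGLL1, for a lambda-like light chain, read 18.40 in cow 718 and between 15.52 and 16.57 in the other 7. IGHG1, the heavy chain of an IgG, read 13.72 in cow 718 and between 8.40 and 10.86 in the others. Of all 19 antibody chain probes found outside the set, 14 were highest in cow 718 among the endometrium arrays, among them all 9 that were well above background on every one of these arrays. Another 3 were highest in cow 833, among them IGHE, the heavy chain of IgE, which read 6.90 there and 5.68 in cow 718 and was above background in cow 833 alone. Several of the 9 probes carry the same name, IGLL1 among them, and are repeat readings rather than separate genes. Of the endometrium arrays, that of cow 718 also had the largest share of spots well above background (79.8%). Its median signal over background, 316, was likewise the highest. The share of all probes on the array that were highest in cow 718 was not counted. In WBC the LOC524810 level of cow 718, 14.98, was the lowest of the SCE cows.

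**Figure D3:**
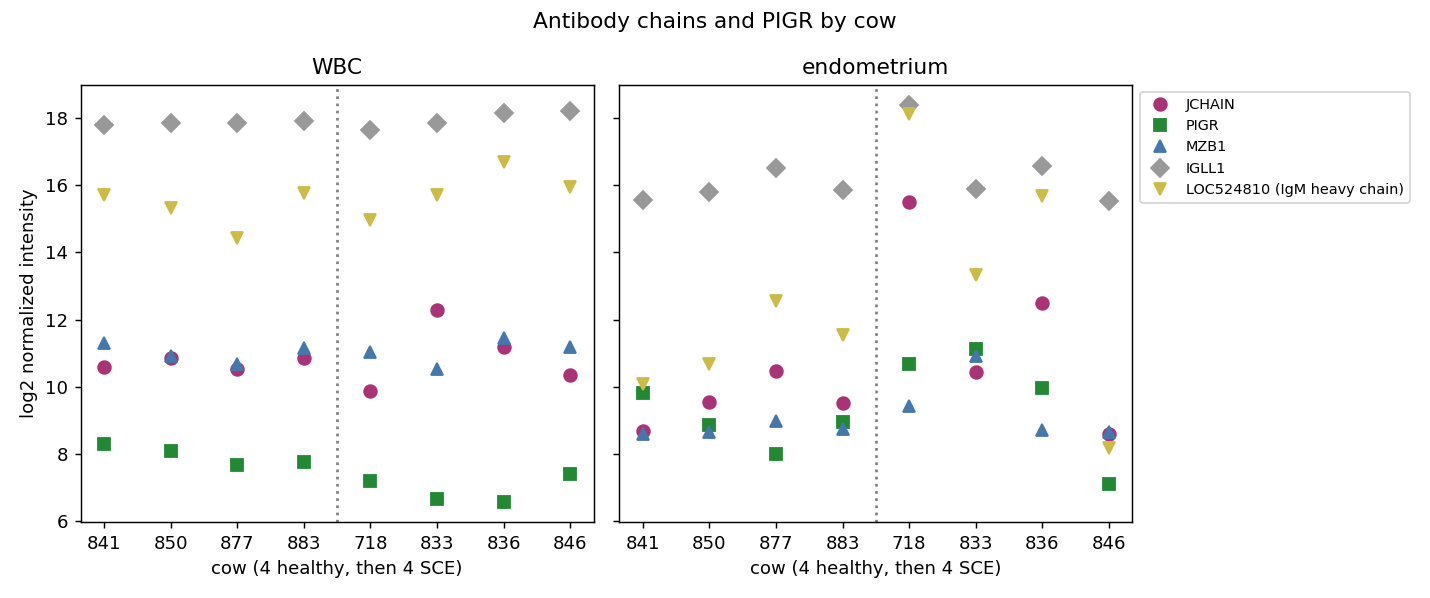
Log2 normalized intensity (y axis) of JCHAIN, PIGR, MZB1 and, from outside the set, IGLL1 and the IgM gene LOC524810 for each cow (x axis; healthy cows left of the dotted line, SCE cows right), in WBC and in the endometrium. In the endometrium JCHAIN and LOC524810 are highest in cow 718 (15.51 and 18.13), whereas MZB1 and PIGR are highest in cow 833 (10.92 and 11.11); each symbol is 1 probe, and heights of different probes are not comparable.

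CD5L, a protein that rides on polymeric IgM with the J chain, belongs to a list of antibody transport genes. It read 12.46 in the endometrium of SCE cow 833, where the other 7 endometrium arrays lay between 6.87 and 8.41. In WBC it was well above background on 1 of 8 arrays. Of all endometrium arrays, that of cow 833, with its low share of spots above background, had the highest MZB1, IRF4, PIGR and CD5L and the lowest PRDM1 (probe 1 of each gene). The part that the quality of the array has in these levels was not tested.

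PIGR, the receptor itself, had a higher mean in SCE than in healthy cows in the endometrium and a lower one in WBC, and neither difference passed adjustment. In the endometrium probe 1 read 9.80, 8.85, 7.98 and 8.95 for the healthy cows (841, 850, 877 and 883) and 10.68, 11.11, 9.97 and 7.09 for the SCE cows (718, 833, 836 and 846). Cows 718, 833 and 836 were above every healthy cow, and 846 was below them all. In WBC it read 8.30, 8.08, 7.67 and 7.75 in the healthy and 7.20, 6.64, 6.55 and 7.41 in the SCE cows, so that every SCE cow lay below every healthy cow.

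The SCE minus healthy difference of probe 1 was 0.81 ± 0.84 (SE) in the endometrium and -1.0 ± 0.23 in WBC. In the endometrium it was 1.69 without cow 846 and 0.35 without cow 833. In WBC it stayed between -1.15 and -0.87 whichever cow was left out. PIGR probe 2, which overlaps probe 1, gave 0.64 in the endometrium, or 0.25 without cow 833 and 1.51 without cow 846, and -1.0 in WBC. The WBC signals of these probes were low. Without background correction, the raw medians of probe 1 were 74.5 to 113 in SCE and 165.5 to 196 in healthy cows. Probe 2 was not well above background in WBC of SCE cow 836. Probe 3 gave 0.61 in the endometrium and 0.04 without cow 833, where it read 8.59 against 5.69 to 6.77 in the other SCE cows. In WBC it was not well above background on any array. The difference between the SCE effects of the tissues, endometrium minus WBC, was 1.81 ± 0.91 (SE) by probe 1 and did not pass (adjusted p = 1). It was 2.84 without cow 846 (adjusted p = 0.405) and 1.25 without cow 833 (adjusted p = 1).

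PIGR was higher in the endometrium than in WBC by probes 1 and 2 over all cows. The differences were 1.85 ± 0.45 and 2.01 ± 0.46 (SE; adjusted p = 0.004 and 0.00254). Without cow 833 they were 1.57 and 1.75 (adjusted p = 0.014 and 0.0101). Taken by status, probe 1 differed by 2.76 in SCE cows (adjusted p = 0.00289) and by 0.95 in healthy cows (adjusted p = 0.308). The value in SCE cows includes cow 833, with the highest PIGR in the endometrium, and how far it rests on this cow was not tested. Probe 3 gave 0.70 (adjusted p = 0.126), 0.40 without cow 833 (adjusted p = 0.284) and 0.90 without cow 846 (adjusted p = 0.0306). It gave 1.17 with each tissue normalized on its own (adjusted p = 0.0127). With its WBC arrays at background, the fold of its endometrium level was 1.35 in healthy and 1.87 in SCE cows. The probe was well above background on only 2 of 4 healthy and 3 of 4 SCE endometrium arrays. These folds are therefore not firm lower limits.

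PIGR is an epithelial gene in mucosal tissue, so a rough measure of the epithelial content of each biopsy is given beside it. The mean level of 19 epithelial genes, among them EPCAM, KRT18 and CDH1, was 11.13, 10.02, 9.37 and 11.25 in the endometrium of healthy cows 841, 850, 877 and 883 and 11.37, 10.23, 11.27 and 10.19 for the SCE cows (718, 833, 836 and 846). It was lowest in cow 877, which had the lowest PIGR of the healthy cows. Cow 833, with the highest PIGR, was in the lower part of the range. Cow 846, with the lowest PIGR, was above cows 850 and 877. The list is not specific to epithelium here, as KRT8, KRT19 and CLDN4 were lower in the endometrium than in WBC (-1.69, -1.30 and -1.40). In WBC the epithelial mean lay between 8.52 and 8.65 in healthy and between 8.34 and 8.71 in SCE cows, groups that overlap where the PIGR levels did not. The part of epithelial content in the PIGR levels was not tested.

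In the endometrium, 11 of 17 probes were higher and 6 lower in SCE, with a median of 0.33, against 0 over all probes. After adjustment limma's TREAT called 0 of the 17, as it did of all probes (0%). Without adjustment it called 0 of the 17 at p of 0.05, where it called 0.453% of all probes. For 0 of the 17 probes did the groups not overlap, against 1.63% of all probes. Without cow 846, whose JCHAIN and PIGR levels were the lowest in the endometrium, 5 probes passed without adjustment, where 1.76% of all probes did. They were those of JCHAIN (3.26 and 3.23), PIGR probes 1 and 2 (1.69 and 1.51) and DERL3 (0.56), and the adjusted p was 1 for each. Leaving out the SCE cow with the lowest level raises the difference of a gene by construction. Most of the 5 are pairs of probes of 1 gene, and the PIGR pair overlaps. Nothing is therefore read from this count beside the share of all probes.

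Single cows also set the size of the smaller differences in the endometrium. MZB1 was higher by 0.69 ± 0.46 (SE) in SCE and by 0.19 without cow 833, and IRF4 probe 1 by 0.33 ± 0.32 and by 0.01 without the same cow. POU2AF1 was higher by 0.71 ± 0.48 and by 0.20 without cow 718, and by 1.46 with the processed signal. PRDM1 probe 1 differed by -0.91 ± 0.78, by -0.21 without cow 833 and by -1.40 without cow 718. DERL3, by contrast, differed by 0.43 ± 0.18 and stayed between 0.33 and 0.56 whichever cow was left out.

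In WBC, 12 of 17 probes were higher and 5 lower in SCE, with a median of 0.04. After adjustment 0 of the 17 passed TREAT, as 0% of all probes did. PIGR probes 1 and 2 passed without adjustment, 2 of 17 where 0.122% of all probes did, and for the same 2 probes the groups did not overlap, as for 1.3% of all probes. PIGR was selected on this difference, so nothing is read from those counts. The difference between the SCE effects of the tissues passed for 0 of 17 probes after adjustment (0% of all probes) and for 0 without it (0.496% of all probes), and its smallest unadjusted p was 0.0664, for DERL3. Without cow 846, 6 probes passed without adjustment in that comparison, where 1.71% of all probes did. The lowest adjusted p was 0.405, for PIGR probe 1. Cow 846 had the lowest JCHAIN and PIGR levels in the endometrium, so nothing is read from this count either.

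**Figure D4:**
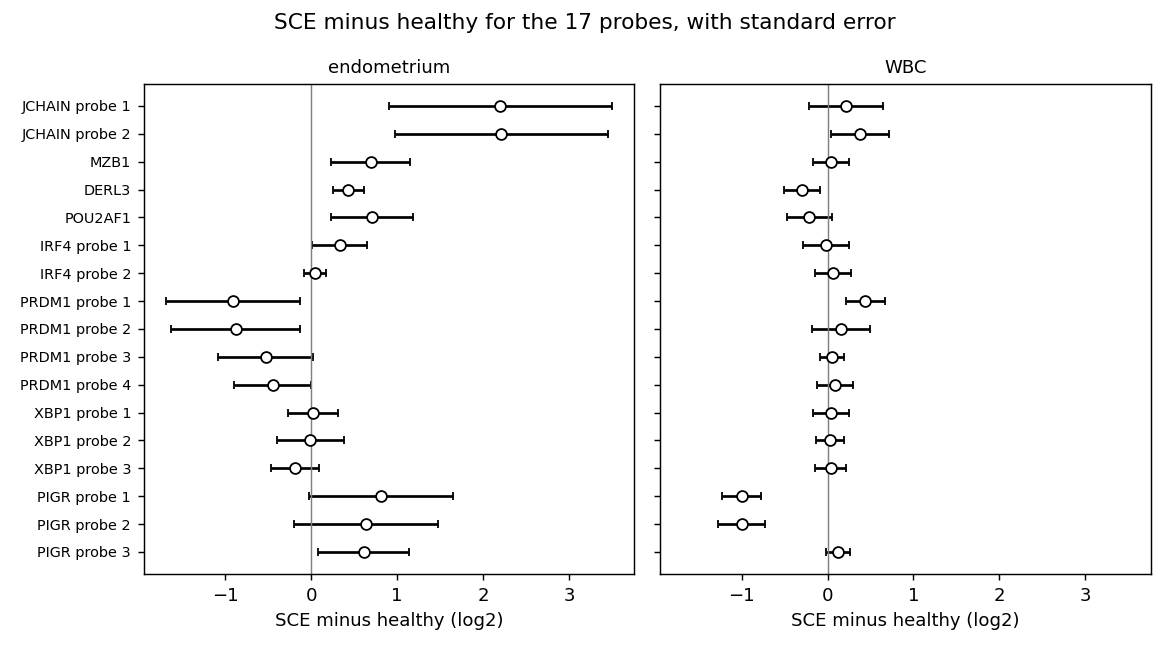
SCE minus healthy difference (log2, x axis) of each of the 17 probes (y axis) in the endometrium and in WBC, 4 cows per group, with standard errors as bars; open points did not pass TREAT after adjustment. JCHAIN lies farthest to the right in the endometrium (2.20 and 2.21), and PIGR probes 1 and 2 lie at -1.0 in WBC.

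Further genes of the same biology were taken from lists, each gene by its brightest probe. The genes named below are examples and are not always those with the largest differences of their list. Over all names on the array, 23.9% were called higher and 31.5% lower in the endometrium, with a median of -0.15. All counts and medians of lists were taken under the main scaling only. With each tissue normalized on its own, the share higher among all called probes rose from 42% to 79.2%. How far the list counts depend on the scaling was not tested. Of 18 measured B cell identity genes, 1 was higher and 14 were lower in the endometrium, with a median of -2.60. Among those lower were MS4A1, the CD20 antigen, and CD79A, part of the B cell receptor, with -2.59 ± 0.16 (SE), and EBF1 was the one higher, with 1.08 ± 0.29. MS4A1 was well above background on all 8 WBC arrays but on 1 endometrium array, of a healthy cow, and its WBC level was at least 44.4-fold higher in SCE cows, none of whose endometrium arrays measured it.

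Of 24 measured genes of plasma cell surface, survival and homing, 5 were higher and 15 lower in the endometrium, with a median of -1.42. TNFRSF13C, the receptor for the survival factor BAFF, was at -6.96 ± 0.22 (SE), ITGB7, a homing integrin, at -5.73 ± 0.11, and CD27 at -3.31 ± 0.17. Those higher were SDC1, the surface marker of plasma cells that epithelia also carry, VCAM1 with 5.22 ± 0.26, CXCL12 with 4.45 ± 0.52, CCL25 with 1.56 ± 0.12 and CCL28. No WBC array measured SDC1 well above background, so that its endometrium level was at least 27.7-fold higher in healthy and at least 21.6-fold higher in SCE cows. CXCL12, CCL25 and CCL28 are chemokines for antibody-secreting cells. CCL28 was well above background on 5 endometrium arrays and on no WBC array, with folds of 1.27 in healthy and 2 in SCE cows. As its endometrium arrays were only partly above background, these folds are not firm lower limits. VCAM1 was well above background on 3 of 8 WBC arrays.

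Of 39 measured genes of the secretory machinery, which XBP1 serves, 18 were higher and 7 lower in the endometrium, with a median of 0.46. The chaperones HSPA5 and HSP90B1 differed by 1.94 ± 0.23 and 1.75 ± 0.22 (SE), whereas FKBP11 and ELL2, genes known for their high level in plasma cells, were lower, by -1.98 ± 0.13 and -2.32 ± 0.18. ERN1, the kinase that splices XBP1, was not well above background on any array. Of 21 measured genes for transcytosis and Fc receptors, 7 were higher and 8 lower. FCGRT, the receptor that carries IgG across cells, differed by 1.32 ± 0.19. Larger differences in this list were those of AP1M2 (2.97 ± 0.48) and LYN (-5.83 ± 0.20). Of 19 measured regulators of PIGR, 0 were higher and 12 lower, among them IRF1 (-2.07 ± 0.27), NFKB1 (-2.21 ± 0.13) and IL1B (-2.61 ± 0.21). Of 3 immunoglobulin genes under standard names, 2 were lower, IGHE and IGLL1.

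Within these lists, limma's TREAT called 0 genes between SCE and healthy cows in either tissue after adjustment. Without adjustment, 0 of 124 genes passed in WBC (0.122% of all probes did) and 1 of 124 in the endometrium (0.453% of all probes did), from the transport list, RAB25, a GTPase of recycling vesicles in epithelial cells. It read 10.68, 10.22, 10.25 and 11.37 for the healthy cows (841, 850, 877 and 883) and 11.44, 10.99, 11.87 and 11.54 for the SCE cows (718, 833, 836 and 846), with a difference of 0.83 (unadjusted p = 0.0461). The groups overlapped through cows 883 and 833. The medians of SCE minus healthy in the endometrium were 0.18 for B cell identity, 0.12 for surface, survival and homing, -0.04 for the secretory machinery, 0.19 for transport, 0.05 for the regulators of PIGR and 0.66 for the 3 immunoglobulin genes, against 0.01 over all names.

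The labelled tissues were checked against markers of other cells. In the endometrium 9 of 10 endothelial, 7 of 8 smooth muscle, 9 of 14 stromal and 13 of 19 epithelial genes were higher than in WBC, and all 13 T cell genes and 12 of 13 neutrophil genes were lower, with LTF the exception. Of 12 monocyte and macrophage genes, 2 were higher and 4 lower. EPCAM read 6.53 and 6.60 in WBC of healthy and SCE cows and 12.71 and 12.46 in the endometrium. The neutrophil mean in the endometrium lay between 7.69 and 7.94 in healthy cows and read 8.60, 8.99, 8.15 and 7.83 in SCE cows 718, 833, 836 and 846. The SCE cows with JCHAIN and PIGR above the healthy median were thus those with the higher neutrophil mean. Cow 846 lay within the healthy range. The neutrophil list includes LTF, which was higher by 2.98 in SCE in the endometrium. Other leukocyte means did not follow this order. In cows 718, 833, 836 and 846 the T cell mean read 9.13, 8.45, 8.59 and 8.70, against 8.49 to 8.78 in healthy cows. The monocyte and macrophage mean read 10.93, 10.55, 9.37 and 10.36, against 9.92 to 10.58. The part of leukocyte content in the JCHAIN levels was not tested.

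From cow to cow, no member was related to JCHAIN beyond what adjustment allows. The 14 relations of the other genes with JCHAIN, 7 per tissue over 8 arrays, gave no adjusted p below 0.135 (exact permutation test, Benjamini-Hochberg). The highest in the endometrium was DERL3, with r = 0.81 (exact permutation p = 0.00965) and rho = 0.62 (exact permutation p = 0.115), and r was 0.42 without cows 718 and 836, on which it rests. PRDM1 had r = 0.78 in WBC (exact permutation p = 0.0518), with rho = 0.48 (exact permutation p = 0.243) and r = 0.81 without cows 833 and 718. XBP1 turned from r = 0.44 to -0.69 in the endometrium once 718 and 836 were left out.

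Of all named genes well above background on every array of a tissue, those most like JCHAIN across the 8 endometrium arrays were IGLL1 (r = 0.965), VPREB3 (0.952), GTF2B (0.945), PSPN (0.944) and SLA2 (0.931), out of 10449. The first is a light chain gene and the next a B lineage gene, which read 11.08 in cow 718 and between 9.65 and 10.34 in the others. By rank correlation, IGLL1 remained at the top and the other 4 were outside the first 5. In WBC they were CETN3, ARL2BP, F5, TMEM167A and AIG1, with r between 0.975 and 0.985 out of 10486. Those most like PIGR were ITGA3 (0.979), MAF1, CD2AP, GABARAPL2 and LRRC47 in the endometrium, and DDT (0.975), SERPING1, TEX264, IFT43 and IMP5 in WBC, and no gene was on the lists of both tissues. These are descriptions over 8 arrays of 1 slide, 4 of healthy and 4 of SCE cows.

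A probe outside the rule is described on the array as similar to dog TNFRSF17, the receptor through which plasma cells receive survival signals. It read 7.25 ± 0.37 and 7.85 ± 0.85 in WBC of healthy and SCE cows and 7.63 ± 0.11 and 8.22 ± 1.49 in their endometrium (SD, n = 4 each). The tissue difference was 0.38 ± 0.40 (SE; adjusted p = 0.616), and SCE and healthy cows differed by 0.60 in both tissues. Cow 718 read 10.30 in the endometrium, where the other SCE cows read 6.84 to 8.18, and without this cow the difference there was -0.10 and the tissue difference -0.05. In WBC the difference was 0.34 without cow 833.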

How the data were processed

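WBC and endometrium of 8 cows were measured on 16 one-colour arrays and grouped by tissue and status from the labels. The authors extracted spot intensities with Agilent Feature Extraction (10.10.1.1, in the submitters' processing notes) and deposited the intensity of each spot without normalization, together with a table of their quantile-normalized intensities. That table differed from quantile-normalized scanner medians by a median of 0.0415% and at most 2.48%.

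From the scanner files the median signal was taken without background correction. The 1319 control spots and 190 to 465 spots per array marked as outliers were left out, log2 values were quantile-normalized over 16 arrays, and spots of a probe were averaged. Intensity, not read depth, underlies every value. At most 1 spot per array was saturated. Contrasts were fitted on all probes in R 4.3.3 by limma 3.58.1, with its functions lmFit and treat (1.2-fold) and Benjamini-Hochberg adjustment at 0.05. The tissue contrasts and the difference of SCE effects came from 1 fit of 4 groups, and SCE against healthy from the 8 arrays of each tissue. Where a named probe was at background on all arrays of a group, its fold was given as a bound under the main scaling, the mean of the bright group over that of the dim group. Each dim array entered with its lowest signal well above background, or with the reading of the probe where that was larger. The fits were tested on simulated data with known changes. Plots used Python 3.11.15 and matplotlib 3.10.9.

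The genes, the lists and the tests were chosen with earlier results of these data known. The rule for named genes takes every member probe, list genes with their counts, and the 5 genes most correlated with JCHAIN and with PIGR in each tissue. The representative probe of a gene is its brightest over the 16 arrays. The immunoglobulin and TNFRSF17-like probes were added after seeing the files. Probe sequences and positions are those of the scanner files.

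Alternatives were normalization within each tissue, the processed signal scaled to its 75th percentile, the authors' normalized values, normexp (offset 50), a filter on dim probes, TREAT at 0 and 1.1-fold, a trended and robust prior, the slide row as a block, the mean of a name's probes, single spots, 1 fit of all arrays, the cow as a block and leaving out each cow. Because both tissues were taken from the same 8 cows, arrays are paired by cow. Over 33862 probes, the deviations from the group means correlated between the WBC and endometrium arrays by 0.07, 0.14, 0.10 and 0.11 in cows 841, 850, 877 and 883 and -0.09, -0.27, 0.06 and -0.03 in cows 718, 833, 836 and 846.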

Additional observations from a re-analysis of the deposited data

Results flagged for a closer look

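In 32 groups of 4 cows, 8 genes by 4 groups, 2 held an array far from the other 3 for its group's range, where chance alone gives about 1 in 20 groups. XBP1 in WBC of healthy cow 877 read 14.02 while the other 3 lay between 13.57 and 13.59, a gap of 0.967 of the range. PRDM1 in WBC of healthy cow 850 read 10.51, above 10.24 to 10.27 in the others, a gap of 0.88 of the range. Both gaps are small beside the tissue differences of these genes (1.61 and 2.80).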

How the results depend on the processing

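POU2AF1, IRF4 probe 2 and PIGR probe 3 had signals near background in 1 tissue. PIGR probes 1 and 2 had low signals in WBC of SCE cows, and probe 2 was not well above background there in cow 836. The 4 cows a group limit the precision of every value. Between tissues, 14 member probes were called, and 13 to 14 when any 1 cow was left out, with 8 to 9 higher and 5 to 6 lower. The probes were not always those of the full data: PRDM1 probe 3 lost its call without 6 of the 8 cows, JCHAIN probe 2 gained one without cow 718 (-1.50) and PIGR probe 3 gained one without cow 846 (0.90). With the mean of the probes of each name, 7 of 8 genes passed, 3 of them higher. With the cow as a replicate block, 13 of 17 probes passed, 8 higher and 5 lower, as PRDM1 probe 3 no longer did (adjusted p = 0.0542), and it also lost its call under normexp (0.0548). Over all probes 24414 passed with the block and 25111 without. Scaling moved the balance of all probes: 42% of the called were higher in the endometrium, and 79.2% with each tissue normalized on its own, with medians over all probes of -0.16 and 0.35, and -0.39 with the processed signal. With each tissue normalized on its own, IRF4 probe 1 lost its call (-0.29) and JCHAIN turned to 0.74. PIGR probe 3 gained one (1.17), as it did with the processed signal (1.74). JCHAIN probe 1 also turned without cow 833 (0.29) and without cow 846 (0.27), with a range of -0.96 to 0.29 when a cow was left out, and probe 1 passed under none of these. Under all 4 scalings POU2AF1 (-7.04 to -4.83), DERL3 (-2.37 to -1.15), MZB1 (-2.12 to -1.0), PRDM1 probe 1 (2.54 to 3.55), XBP1 probe 1 (0.95 to 2.03) and PIGR probe 1 (1.57 to 2.71) kept direction and call. Between SCE and healthy cows, 0 probes passed adjustment in either tissue under every alternative, or in the difference between tissues. Without adjustment, the counts in the endometrium moved from 0 to 1 with a TREAT threshold of 0 and with all 16 arrays in 1 fit, and lay between 0 and 5 when a cow was left out. For the difference between tissues they moved from 0 to 1 with thresholds of 0 and 1.1-fold and with the slide row as a block, and lay between 0 and 6 without a cow. In WBC the count of 2 moved to 1 with the mean of a name's probes and to 0 with all arrays in 1 fit, and was 2 whichever cow was left out. The cause of these moves was not tested.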
